A study of Mus musculus with 7 samples.

Results

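Lone CTCF sites that had neither a CTCF motif in the deposited listing nor a Rad21 peak were examined here, in livers of male CD-1 mice (strain Crl:CD1(ICR)) of 8 weeks of age, for which no treatment is named. Chromatin immunoprecipitation and sequencing (ChIP-seq) gave 4 CTCF and 3 Rad21 libraries, and the files hold peaks of the pooled reads of each factor. Whole liver was used, and the lists hold no value per mouse or per library, so no spread between mice can be given. The members were selected on these same ChIP-seq lists. A site was chosen by the following values, namely that it lay on chromosomes 1 to 19, was classed by the authors as lone CTCF, had an empty motif field, and shared 0 bp with any pooled Rad21 peak. These criteria gave 1699 members among 52436 classed CTCF sites, or 19.7% of the 8615 autosomal lone sites without a Rad21 peak.

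CTCF is a zinc finger protein that reads a long DNA motif and halts the ring-shaped cohesin complex, of which Rad21 is a subunit. Some of the sites where both proteins meet (CAC sites, for cohesin and CTCF) anchor chromatin loops, and those that the authors did not class as anchors are called other CAC sites. Each cohesin ring carries either Stag1 or Stag2 as a further subunit. Top2b is a topoisomerase that cuts and reseals both DNA strands and is often found near CTCF and at promoters. The members were set beside 2 other groups. The lone motif sites (6916) were lone and without a Rad21 peak too, and differed from the members by their deposited motif. The motif-free CAC sites (6193) also lacked a motif, but differed by 2 criteria, as they were classed as other CAC sites and overlapped a Rad21 peak. Another 1004 lone sites lacked a motif too, but overlapped a Rad21 peak. Their CTCF peak scores were also lower, with none above 129, and they are given as a description only. Shares over all 51203 classed autosomal sites are given as the background.

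The sequences at the member summits were read first, since absence of the motif defines these sites. A CTCF matrix of 19 columns was learnt from 1800 strong anchors of topologically associating domains, and its central letters read CCACNAGGGGGC, with N for any base. The shorter core means here a match to this matrix with column 13, in its run of G, taken out, which turns the central letters into CCACNAGGGGC. The letters of such a match vary, as those of any match to a matrix. The 5 strongest members that had a shorter core outside untranslated exons are shown on the strand of the match, with the 18 matched bases in capitals. Of these the one near Nfatc2 alone reads exactly CCACNAGGGGC. Each name is that of the gene with the nearest protein-coding transcription start, with the position in build mm9 and the strand.
Duoxa1, chr2:122138564-122138623, minus: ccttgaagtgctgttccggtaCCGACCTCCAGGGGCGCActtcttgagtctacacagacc
Myl10, chr5:137179791-137179850, minus: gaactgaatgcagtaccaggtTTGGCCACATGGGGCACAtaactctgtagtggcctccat
Nfatc2, chr2:168276671-168276730, minus: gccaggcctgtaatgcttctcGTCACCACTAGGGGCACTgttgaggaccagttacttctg
Diras2, chr13:52448153-52448212, plus: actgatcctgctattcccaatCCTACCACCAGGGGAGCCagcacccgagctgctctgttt
Mpped1, chr15:83587339-83587398, minus: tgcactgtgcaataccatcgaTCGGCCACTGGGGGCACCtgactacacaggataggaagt

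For comparison, the 2 strongest lone motif sites with a match to the full matrix outside untranslated exons are given, with their 19 matched bases in capitals. The run of G varies between sites, and at Kcnj11 it holds an A. A shorter run in the members cannot be read from these few sequences.
Kcnj11, chr7:53356147-53356206, plus: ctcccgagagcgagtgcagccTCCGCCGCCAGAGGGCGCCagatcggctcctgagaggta
Ptma, chr1:88422026-88422085, minus: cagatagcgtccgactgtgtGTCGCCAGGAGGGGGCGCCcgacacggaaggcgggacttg

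The shorter core was present in 214 members. This was 12.6% of the members (95% Wilson interval 11.1 to 14.3), against 1.0% of windows placed 2 kb to either side of the same summits, where the limit for a match had been set. The same match was found in 4.4% of lone motif sites, 4.52% of motif-free CAC sites and 0.797% of the lone sites without a motif that overlapped a Rad21 peak, and in 4.04% of all classed sites. The groups are unlike in CTCF peak score. Those lone sites with a Rad21 peak all scored 129 or less, and members with scores of 43 to 127 had the match in 2.92%. The exact letters CCACNAGGGGC were rarer, in 37 members (2.18%, interval 1.58 to 2.99) within 100 bp of the summit on either strand and in 0.0294% of flanks. They were in 0.737% of lone motif sites, 0.614% of motif-free CAC sites and 0.478% of all classed sites. Removal of any column from 12 to 15 gave between 11.4% and 12.9% of members, so these matches do not single out 1 column. Adding a free column instead gave at most 5.89% of members. These searches were chosen after the sequences had been seen, the shorter core was one of several tried, and no test is given.

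**Figure D1:**
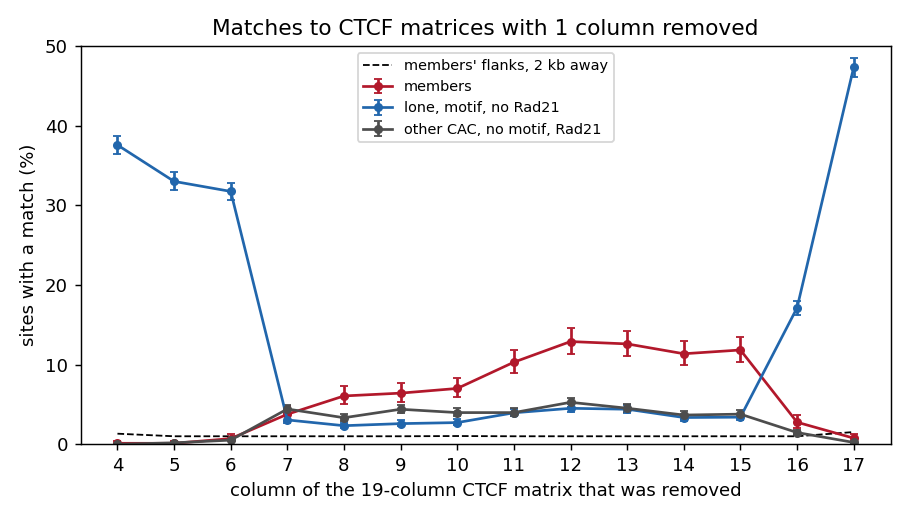
Share of sites (%) with a match to the CTCF matrix after removal of 1 of its columns (x axis), for the members, the lone motif sites and the motif-free CAC sites; points are shares, bars are 95% Wilson intervals, and the dashed line is the share at flanks 2 kb from member summits. The members lie above both other groups at columns 8 to 15 and reach 12.9% at column 12, while the lone motif sites lie between 17.1% and 47.3% at columns 4, 5, 6, 16 and 17 and between 2.33% and 4.51% at columns 7 to 15.

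The shorter core was more frequent at stronger members. Of the 10 members with the highest scores 7 had it, as had 39 of the highest 100. When the members were split by score into 5 bins of about equal size, the match was present in 2.92% of members in the lowest bin and 27.5% in the highest. The match centre lay within 20 bp of the summit in 109 of the 214 members, or 50.9%. Members with the shorter core had a median score of 348.5, against 198 in the other 1485 members. They carried the Top2b flag in 10.3% of cases and a transcription start within 1 kb in 10.3%, against 21.7% and 20.5% for all members.

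A further sequence, TGCAGTNCC, was read from the most frequent words of the members. This string resembles the upstream element that is known to lie beside the core at some CTCF sites. It was found within 100 bp of the summit on either strand in 140 members (8.24%, interval 7.02 to 9.64), and in 0.706% of the flanking windows. The string was chosen from these same members, so its excess over their flanks is a description without a test. Its share was 12.8% in lone motif sites, 2.87% in motif-free CAC sites, 0.697% in lone motif-free sites with Rad21 and 6.04% over all classed sites. The lone motif-free sites with Rad21 all scored 129 or less. Members had the string in 4.96% at scores of 43 to 127 and in 15.5% in the highest score bin. Either this string or the shorter core occurred in 334 members (19.7%), and both in 20. Either was found in 16.7% of lone motif sites, 7.25% of motif-free CAC sites and 1.49% of lone motif-free sites with Rad21. The strings of 4 members without a match to the shorter core are shown in capitals, because they include the second strongest member.
Bdkrb2, chr12:106714873-106714932, minus: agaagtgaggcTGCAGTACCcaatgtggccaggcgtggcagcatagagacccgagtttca
Nenf, chr1:193129700-193129759, plus: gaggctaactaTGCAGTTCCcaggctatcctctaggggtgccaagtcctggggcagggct
Prkcb, chr7:129588760-129588819, minus: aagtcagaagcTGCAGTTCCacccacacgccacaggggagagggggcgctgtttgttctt
Mmd, chr11:90029220-90029279, minus: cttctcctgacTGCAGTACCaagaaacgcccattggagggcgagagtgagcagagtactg

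Of all words of 8 letters present in at least 30 members, the 10 most frequent relative to the flanks had the forms of these elements or were rich in CG. The first was AGCGCCCC, in 4.41% of members, 0.147% of flanks, 2.96% of lone motif sites and 3.67% of motif-free CAC sites. The next was AGGGGCGC, in 2.94%, 0.0883%, 0.419% and 2.68%. GTACTGCA, the reverse strand of part of the upstream string, was in 5.65%, 0.353%, 6.65% and 1.34%. The word CCACTAGG, at rank 17 and from the left part of the core, was in 6.12%, 0.500%, 3.67% and 2.2%.

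Over all members together, the best match to the full matrix, however weak, lay close to the summits more often than in the flanks. It was within 20 bp of the centre in 27.7% of member windows and in 14.9% of windows 2 kb away. Averaged over 19 autosomes the difference was 12.7 percentage points ± 5.39 (SD between chromosomes), and it was positive on 18 autosomes (two-sided sign-flip permutation test over chromosomes, p = 2e-05, the smallest that 100000 permutations can give, Benjamini-Hochberg adjusted p = 2.44e-05 over 11 tests). With the columns of the matrix in reversed order, added after seeing the data, the difference was 2.37 points (adjusted p = 0.163, permutation test). A match as good as the best 5% of flanking windows was present in 15 members, the criterion having left out sites with a deposited motif. The central share was 30.2% in members more than 1 kb from a start and 18.1% in those within 1 kb, where the flanks gave 14.3% and 17.5%. It was 50.6% in lone motif sites, 23.9% in motif-free CAC sites and 16.2% in lone motif-free sites with Rad21. The lone motif-free sites with Rad21 had no CTCF score above 129, and members with scores of 43 to 127 had a central share of 16.035%. At such low scores the members were thus close to that group.

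**Figure D2:**
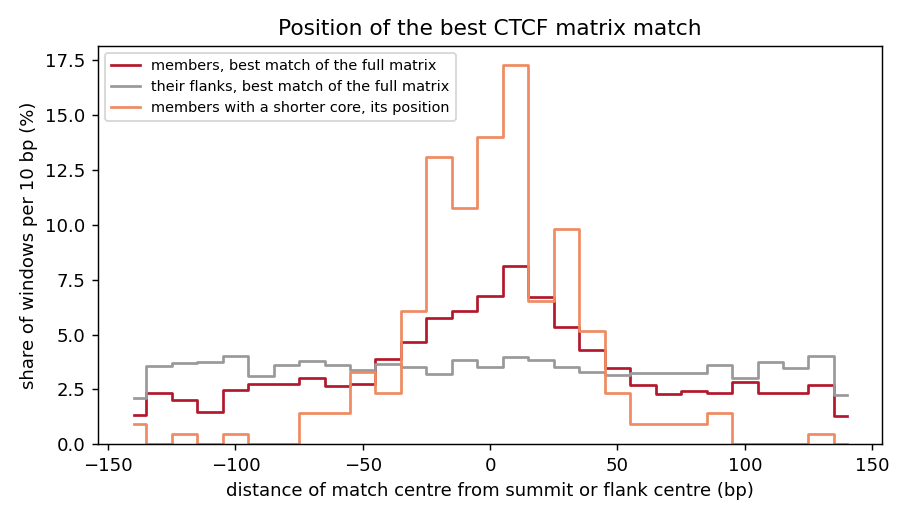
Share of windows (%) per 10 bp by the distance of the best CTCF matrix match from the summit or from the centre of the flanking window (bp), for the members, their flanks 2 kb away, and the 214 members with a shorter core. The members and their shorter cores gather around 0, and the flanks are even across the window, with 14.9% of their best matches within 20 bp of the centre.

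CTCF peaks at the members had lower scores than those of the lone motif sites and the motif-free CAC sites, with a wide range. The score is 10 times the negative decimal logarithm of the q-value of the peak, as the peak caller wrote it. Its median was 211 in the members (quartiles 139 and 359.5, range 43 to 9062), 267 in lone motif sites, 371 in motif-free CAC sites and 830 over all classed sites. The probability that a member exceeded a site of the other group (AUC, with 0.5 for no difference) was 0.409 for lone motif sites, 0.289 for motif-free CAC sites and 0.204 for all classed sites. At the summit a median of 52 fragments (range 21 to 1046) were piled up in the members, 57 in lone motif sites, 78 in motif-free CAC sites and 126 over all classed sites, as recovered from the deposited fold and p-value. The median fold over the local background was 5.46, 6.39, 7.02 and 10.7. These values come from the CTCF reads that also made the class list, and they are a description without a test. The lone motif-free sites with Rad21 had a lower median of 98 and all scored 129 or less, and the motif-free CAC sites all 129 or more, whereas 350 members (20.6%) scored 129 or less. The motif-free CAC sites therefore have a floor of score that the members do not have.

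The strongest member (score 9062, 1046 fragments) was at chr7:19881181-19881602, in an untranslated exon of Rtn2, a reticulon of the endoplasmic reticulum, and carried the Stag2 and Top2b flags. Its fold of 18.7 was below the 28.3 of the next member, as its local background was also higher (55 against 15 fragments). That next member (score 4770, 451 fragments) lay at chr12:106714581-106715134 between genes, 86484 bp upstream of the nearest start, that of the bradykinin receptor gene Bdkrb2, and carried the Stag2 flag alone. The third (4157, 430 fragments) was at chr2:122138363-122138943 in an intron of Duoxa1, which encodes a maturation factor of a dual oxidase, 769 bp downstream of its start, and carried no flag. These 3 members thus lay in an exon, between genes and in an intron.

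Of the other 7 among the 10 strongest, 5 were intergenic. They lay near Myl10, a myosin light chain gene (3870), Nfatc2, a transcription factor gene of the NFAT family (3646), Diras2, a small GTPase gene (3157), Mpped1 (3151) and Cdh13, which encodes T-cadherin (2908). The nearest of the 5 to a start was that near Cdh13, at 8849 bp, and the farthest that near Diras2, at 178028 bp. The remaining 2 were in an untranslated exon of the guanine exchange factor gene Rasgrf2 (3219), and 107 bp upstream of a start of the sialyltransferase gene St6galnac4 (3061). Flags for Stag1, Stag2 and Top2b were all present only at the Rasgrf2 site among these 10.

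Members of median strength looked different from these. The 5 with scores of 211 and first in genome order had between 47 and 71 fragments at the summit and folds between 4.15 and 6.0. They lay in introns of Pygb, a glycogen phosphorylase gene, and Siae, a sialic acid esterase gene, and between genes near Id3, an inhibitor of DNA binding, Bcl9l and Hmgn3. The Pygb site carried the Stag2 and Top2b flags, the Siae site Stag2 alone, and the other 3 no flag.

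At the edges of the criteria, the member closest to a Rad21 peak was separated from it by 5 bp, at chr1:91476910-91477375 (score 322), and the next by 8 bp, at chr17:56443563-56443890 (score 558). Just outside, the smallest overlaps of lone motif-free sites with a Rad21 peak were 6 bp and 7 bp, at scores of 83 and 122. In all 369 members (21.7%) had a Rad21 peak within 1 kb, compared with 12.1% of lone motif sites. The median distance to the nearest Rad21 summit was 5049 bp in members and 7866.5 bp in lone motif sites. A Rad21 signal too weak to be listed as a peak cannot be seen in these files.

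The next question was whether the members lay at other places in the genome than lone sites with a motif. A protein-coding transcription start lay within 1 kb of 348 members, or 20.5% (interval 18.6 to 22.5), and of 6.95% of lone motif sites, a difference of 13.5 points (95% Newcombe interval 11.6 to 15.6). Over autosomes the mean difference was 13.3 points ± 5.20 (SD), and the members were higher on 19 of 19 (sign-flip permutation test, adjusted p = 2.44e-05). In the motif-free CAC sites the share was 51.5%, and the members were lower on all 19 autosomes, with a mean difference of -30.7 points ± 5.50 (adjusted p = 2.44e-05, sign-flip permutation test). Over all classed autosomal sites the share was 21.9%, which the members were near. The chromosomes are the units of these tests, so each p refers to the spread between chromosomes and not between mice.

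Members occurred on every autosome, from 48 to 141 per chromosome and from 2.55% to 4.62% of the classed sites there. Their summits were in introns of protein-coding genes in 48.2% of cases, between genes in 34.0%, in untranslated exons in 7.42% and in coding exons in 6.53%. For lone motif sites these shares were 50.9%, 40.2%, 2.67% and 3.28%, and for all classed sites 41.7%, 41.7%, 7.29% and 5.77%. The median distance to a start was 10166 bp, against 18462 bp in lone motif sites and 748 bp in motif-free CAC sites. Near a start, 44.8% of the 348 summits were upstream of it (interval 39.7 to 50.1), compared with 51.8% of 481 lone motif sites, 31.8% in motif-free CAC sites and 39.6% over all classed sites. Another member lay within 10 kb of 77 members (4.53%), and a member lay as near to 3.11% of lone motif sites, 4.63% of motif-free CAC sites and 3.24% of all classed sites. Fgfr2, a fibroblast growth factor receptor gene, held the most, 5, followed by Clmn with 4.

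The 5 strongest promoter members are not typical of this set, whose median score was 195. All of them but the St6galnac4 site had a G+C content below the set's median of 62.0%. The first 2 of the 5 were those at Duoxa1 and St6galnac4. The third (2831, 354 fragments) was at chr8:87355342-87355875, 112 bp downstream of the start of Gadd45gip1, a gene for a protein of the mitochondrial ribosome. Next were a site 917 bp upstream of the histone gene Hist1h3e (2524, 280 fragments) and a site 435 bp upstream of a start of the ceramide synthase gene Lass2 (2097, 324 fragments). The last 3 carried the Stag2 flag and the first 2 did not, and Gadd45gip1 also carried Stag1.

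The base composition was compared next. The median G+C content of 300 bp around the summit was 48.7% in members, 45.3% in lone motif sites and 58.3% in motif-free CAC sites, beside 49.3% over all classed sites, with flanks at 45.0%, 45.0% and 44.7%. The members exceeded lone motif sites on 19 of 19 autosomes by 3.56 points ± 1.20 (SD) on average, and were lower than motif-free CAC sites on 19 of 19, with a mean difference of -9.52 points ± 1.53 (adjusted p = 2.44e-05 for both, sign-flip permutation test). Away from starts the gaps were smaller, at 2.53 points against lone motif sites and -2.91 points against motif-free CAC sites, and both still passed the test. Members within 1 kb of a start had a median of 62.0% and the others 47.3%. A ratio of observed to expected CpG of at least 0.6 was found at 63.8% of members near a start and at 6.44% of the others, or 18.2% of all members beside 21.1% of all classed sites. In lone motif sites the shares were 54.7% near a start and 2.14% farther away, and in motif-free CAC sites 86.3% and 12.6%.

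**Figure D3:**
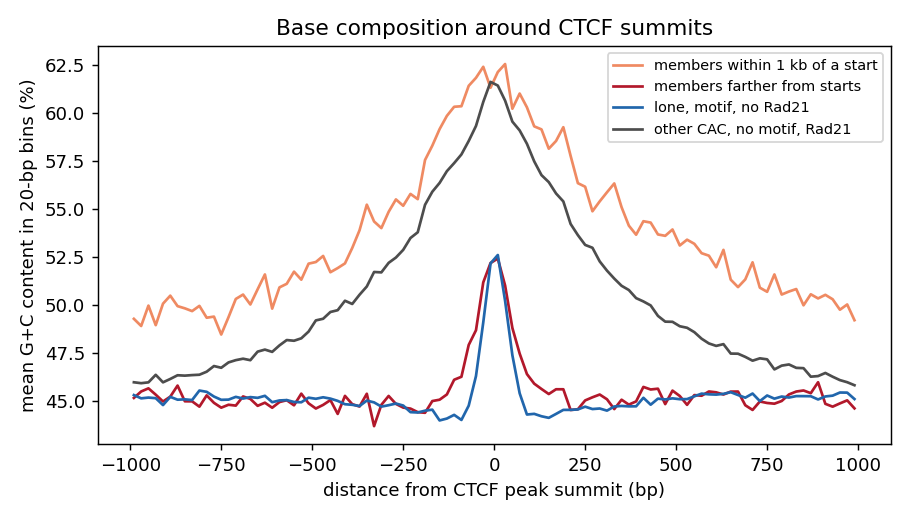
Mean G+C content (%) in bins of 20 bp against the distance from the CTCF summit (bp), for members within 1 kb of a start, the other members, lone motif sites and motif-free CAC sites. Members near starts resemble a broad GC-rich hill as do the motif-free CAC sites, and the other members show a narrow peak at the summit on a level like that of the lone motif sites.

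The Sp/Klf string GGGCGG, a promoter element, followed the same division. On either strand within 100 bp of the summit it was found in 41.4% of members near starts and in 6.07% of the other members, with 5.32% and 3.22% in their flanks. Over all members the share was 13.3%, beside 6.19% in lone motif sites, 30.1% in motif-free CAC sites and 14.8% in all classed autosomal sites. The promoter member upstream of St6galnac4 had 3 copies, shown in capitals as they read on the plus strand (CCGCCC is the reverse strand of GGGCGG).
St6galnac4, chr2:32442408-32442607, plus: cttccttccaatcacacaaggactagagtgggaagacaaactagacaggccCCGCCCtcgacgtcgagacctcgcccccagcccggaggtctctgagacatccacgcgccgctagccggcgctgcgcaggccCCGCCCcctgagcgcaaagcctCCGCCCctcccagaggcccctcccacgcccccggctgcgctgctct

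Strings of liver transcription factors were searched in the same way. The nuclear receptor string AGGTCA was found in 13.8% of members, 12.1% of their flanks, 10% of lone motif sites, 11.3% of motif-free CAC sites and 11.3% of all classed sites. Among members near a start it was in 7.18% and in their flanks in 11.9%, and among the other members in 15.5% and 12.1%. The FoxA string TGTTTAC was in 2.88% of members and 2.62% of flanks, the C/EBP string TTGCNNAA in 7.83% and 8.21%, and the Hnf4a string CAAAGTCCA in 0.530% and 0.383%. Over all classed sites these strings were in 2.27%, 6.98% and 0.350%. Of strings typical of promoters, CCGGAAG (ETS) was in 2.59% of members, 1.15% of flanks and 2.53% of all classed sites, GCGCATGC (Nrf1) in 1.29%, 0.294% and 0.670%, and CCAAT (NF-Y) in 22.2%, 23.4% and 19.7%. The Yy1 string AAGATGGC was in 1.12% of members, 1.09% of flanks and 2.06% of all classed sites. The Znf143 string ACTACAA was in 1.88%, 2.27% and 1.76%. The other strings searched were TGACGTCA (CREB), CACGTG (E-box), TGANTCA (AP-1), TTCAGCACC (Rest) and GGGGAGGG (Maz), at 0.235%, 3.88%, 6.71%, 0.0589% and 3.77% of members against 0.147%, 2.91%, 6.36%, 0.147% and 4.03% of flanks. Their shares over all classed sites were 0.262%, 3.59%, 4.75%, 0.260% and 3.12%. The string CCCTC, part of the CTCF core, was in 45.7% of members, 38.7% of their flanks, 71.2% of lone motif sites and 61.3% of all classed sites. A string is a description of letters and not of a bound factor.

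Overlap with Stag1, Stag2 and Top2b was taken from the flags that the authors deposited from public data, which the choice of members did not use. Although none of the members overlapped a Rad21 peak, 925 carried the Stag2 flag (54.4%, interval 52.1 to 56.8), 368 the Top2b flag (21.7%, interval 19.8 to 23.7) and 301 the Stag1 flag (17.7%, interval 16 to 19.6). No flag was present at 692 members (40.7%) and all 3 at 107 (6.30%). Over all classed sites Stag2 was at 88.3%, Top2b at 55.1% and Stag1 at 70.8%, with no flag at 10.2% and all 3 at 47.6%. The most frequent single combination beside none was Stag2 alone, at 447 members (26.3%), beside 28.1% of lone motif sites and 11.6% of all classed sites. Stag1 without Stag2 was found at 31 members (1.82%), 3.18% of lone motif sites and 1.01% of all classed sites. Top2b without Stag2 was found at 53 members (3.12%), 0.578% of lone motif sites and 0.547% of all classed sites.

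Of the 3 flags, Top2b differed most between members and lone motif sites, of which 5.29% carried it. The difference was 16.4 points (Newcombe interval 14.4 to 18.5), and over autosomes 16 points ± 4.95 (SD), with the members higher on 19 of 19 (adjusted p = 2.44e-05, sign-flip permutation test). It was as large between sites of matched CTCF score, at 15.9 points, and among sites more than 1 kb from a start, at 15.1 points (adjusted p = 2.44e-05 for both, sign-flip permutation test). In sites near a start 29.0% of members and 19.1% of lone motif sites were flagged, and farther away 19.8% and 4.26%.

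Stag1 and Stag2 differed from lone motif sites by smaller amounts and in opposite directions. Stag1 was found at 22.9% of lone motif sites, so that the difference of the members from them was -5.23 points (interval -7.24 to -3.11), and members were lower on 17 of 19 autosomes (mean difference -6.09 points ± 5.13, adjusted p = 0.000308, sign-flip permutation test). Stag2 was found at 50.2% of lone motif sites, a difference of 4.27 points in favour of the members (interval 1.62 to 6.90), and members were higher on 13 of 19 autosomes (mean difference 4.42 points ± 6.09, adjusted p = 0.00546, sign-flip permutation test). Without sites that had a Rad21 peak within 1 kb the Stag2 difference was 3.39 points and did not pass the test (adjusted p = 0.0544, sign-flip permutation test).

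**Figure D4:**
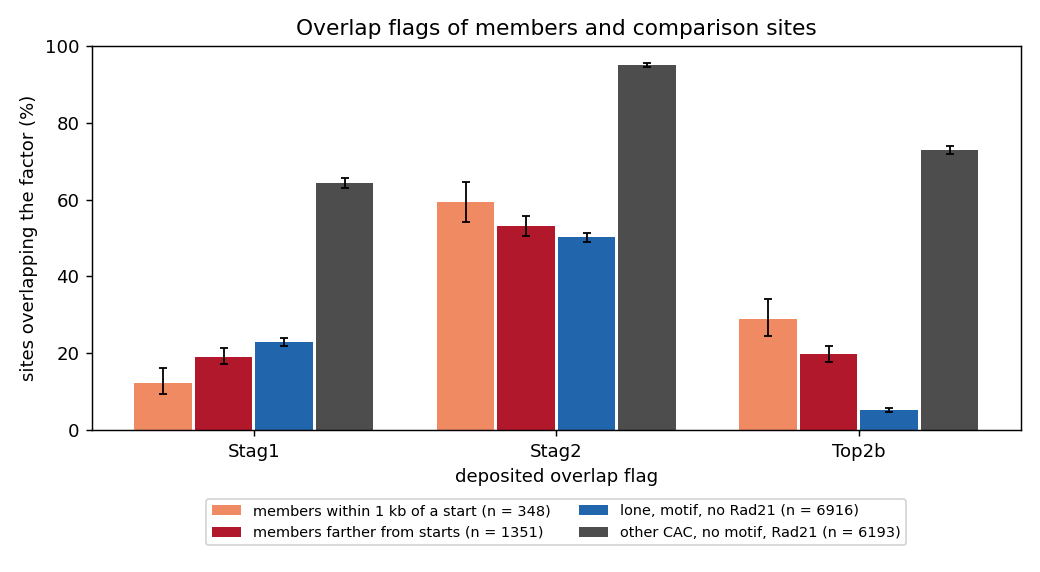
Share of sites (%) that carry the deposited Stag1, Stag2 or Top2b flag, for members within 1 kb of a start, the other members, lone motif sites and motif-free CAC sites; bars start at 0 and lines are 95% Wilson intervals. Motif-free CAC sites exceed all other groups for each factor, and both sets of members exceed lone motif sites for Top2b (29.0% and 19.8% against 5.29%).

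Set beside motif-free CAC sites, the members were far less often flagged for each factor. Stag1 was present at 64.3%, Stag2 at 95.1% and Top2b at 73.0% of motif-free CAC sites. The mean differences over autosomes were -47.0 points ± 4.50, -40.2 points ± 6.49 and -51.8 points ± 4.84 (SD), each negative on 19 of 19 (adjusted p = 2.44e-05, sign-flip permutation test). Stag1 and Stag2 are subunits of the complex whose absence chose the members, so the tests of both follow in part from the choice of groups. Both subunits were measured in other data. The 1004 lone motif-free sites with Rad21 carried them at 55.9% and 92.7%, and Top2b at 76.4%, although their median score was 98.

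**Figure D5:**
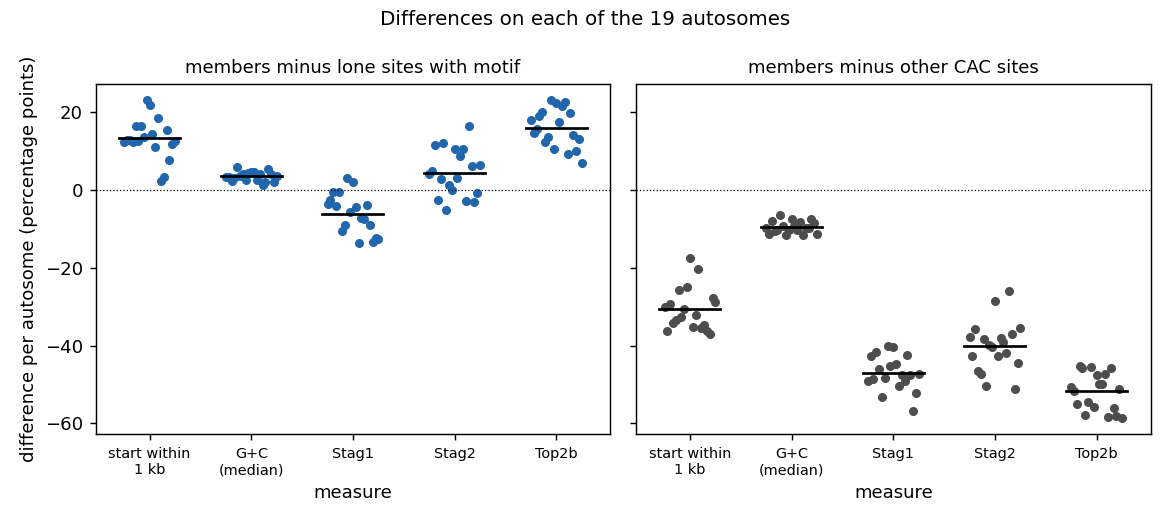
Difference between members and lone motif sites (left) and between members and motif-free CAC sites (right) on each of the 19 autosomes, in percentage points, for the share near a start, the median G+C content and the 3 flags; points are autosomes and black lines their means. On the left all points are above 0 for starts, G+C and Top2b, and on both sides of 0 for Stag1 and Stag2; on the right all are below 0.

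The flags varied with strength in different ways among the members. From the weakest to the strongest of the 5 score bins, Stag2 was present at 51.0%, 50.7%, 53.6%, 56.2% and 60.9%. Stag1 stayed between 13% and 16% in the lower 4 bins and was 28.4% in the strongest. Top2b lay between 20.6% and 23.0% in all 5 bins. Members with Stag1 had a median score of 243, and those without any flag of 195.

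The 5 strongest members with all 3 flags had scores from 1380 to 3219. Besides the site in Rasgrf2 they lay in untranslated exons of AU022252 and of the proline dehydrogenase gene Prodh, in an intron of the transcription factor gene Twist2, and 20145 bp upstream of the calcium pump gene Atp2a3. The 5 strongest without a flag had scores from 1863 to 4157. Besides those at Duoxa1 and St6galnac4 they lay in introns of Znhit1, which encodes a subunit of a chromatin remodelling complex, and of the kinase gene Camk2a, and 18019 bp upstream of the homeobox gene Meox1. Strong members were thus found with and without these flags.

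Genes of 5 lists, chosen with earlier results known, were searched for members, and the counts are given without a test. Members were autosomal by choice, so any gene counted here from a sex chromosome could not have a member. From 1 kb upstream to the gene end, 1166 of 22225 protein-coding genes (5.25%) had at least 1 member, and 60.8% had any classed site. Of 15 chromatin architecture genes found by symbol 4 had a member (26.7%). The strongest was in an intron of Ctcf itself, at chr8:108184976-108185566 (score 1168, 141 fragments, Stag1 flag), and others were 85 bp downstream of the start of Yy1 (621) and in an intron of the cohesin loader gene Nipbl (430). Stag1 was the fourth gene.

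Of 23 hepatocyte transcription factor genes 3 had a member (13%). They were Nr5a2, a regulator of bile acid genes, with sites 516 bp and 25795 bp downstream of its start (185 and 184), the bile acid receptor gene Nr1h4 (135) and Hnf4a. Of 27 hepatocyte metabolism genes only the drug-metabolizing Cyp3a11 had a member, in an intron (138, 37 fragments), which is 3.70% of the list. Of 37 plasma protein genes 2 had a member (5.41%), both in coding exons. These were Fgb, the fibrinogen beta chain gene (217, 63 fragments), and F2, the prothrombin gene (184, 62 fragments). By symbol, 148 genes fell under the criterion for ribosomal proteins, which also takes in pseudogene copies and kinases, and 3 had a member (2.03%). They were Rps15a (906, 247 bp upstream of the start, all 3 flags), Rps19bp1 (173) and Rpl26-ps2 (146), and only the first of these encodes a known ribosomal protein. Any classed site was found in 13 of the 15 architecture genes, 20 of the 23 transcription factor genes, 15 of the 27 metabolism genes, 16 of the 37 plasma protein genes and 74 of the 148 ribosomal symbols.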

How the data were processed

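Livers of male mice were profiled by ChIP-seq for CTCF (4 libraries) and Rad21 (3 libraries). As the study's methods state, reads of each factor were merged by the authors, mapped to mm9 with Bowtie2, filtered for unique positions, and turned into peak lists with MACS2, without blacklisted regions and peaks of PCR duplicates alone. The deposited score is the −log10 of the q-value times 10, as a whole number. The deposited fold is a ratio of summit fragments to local background with a pseudocount of 1. The deposited −log10 columns hold a p-value and a q-value. The deposited motif field holds a log-odds score for the CTCF motif of a site and its strand. The authors made the class list from CTCF peaks present in at least 2 livers and added overlap flags from public data. The flag columns have no header, and their names rest on the order in the study's description.

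Fragment counts at summits were recovered from the fold and the −log10 p-value and were whole within 0.05 at 52433 of 52436 sites and at all 1699 members. Depth per library is not given in the lists. Genes came from GENCODE vM1 on NCBIM37, the same build (45961 starts of protein-coding transcripts). Sequences were read from NCBIM37, and windows that touched an untranslated exon or chromosome 18 were passed over for printing. Overlap meant 1 bp. The matrix of 19 columns was learnt on odd-numbered autosomes. On the others the strand of its match equalled the deposited strand at 99.1% of 14990 sites. The limit for the shorter core was the 99th percentile of the members' flanks. Shares carry 95% Wilson intervals and differences of shares Newcombe intervals, which cover counting error only. Differences per autosome were tested with two-sided sign-flip permutation tests (100000 permutations) and adjusted over 11 tests by Benjamini-Hochberg. Sites near each other share chromatin and are not replicates. The scripts were tested on simulated data.

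The members, gene lists, strings and tests were chosen with earlier results of these data known. Named sites were the 10 members with the highest score, the 5 highest with all flags, with no flag and within 1 kb of a start, the 5 closest to the median score, and up to 3 of the highest in each gene list. Alternatives were matched scores in 10 bins, a score of at least 100, chromosome X, a Rad21 peak within 1 kb counted as shared, sites beyond 1 kb from starts, sites without a learnt match, and other windows. Repeats were not analysed, since the genome was not masked. Chromosome X held 41 further sites that met the other criteria and were left out. The tools were SciPy 1.17.1 and NumPy 2.4.6 in Python 3.11.15, with pandas 2.3.3, Matplotlib 3.10.9, pysam 0.24.0 and samtools 1.23.1.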

Additional observations from a re-analysis of the deposited data

How the results depend on the processing

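Of 73 alternative values, 71 kept their direction and their side of the threshold, or, for the number of members, stayed within 1.5 times the 1699 reported. With a Rad21 peak within 1 kb counted as shared, the excess of Stag2 over lone motif sites was 3.39 points (adjusted p = 0.0544, sign-flip permutation test), and over its alternatives the adjusted p ranged from 0.00054 to 0.0544. With the reversed matrix, added after seeing the data, the central excess was 2.37 points (adjusted p = 0.163, permutation test). The cause was not tested for either. The excess of G+C over lone motif sites was 1.89 points in windows of 100 bp, and the central excess was 7.51 points within 10 bp and 19 points within 50 bp, all past the threshold. The number of members was 1330 with Rad21 within 1 kb counted as shared, 1539 at scores of at least 100 and 1740 with chromosome X. No paired analysis was possible because the lists hold pooled peaks without values per library, and for the same reason no library could be left out. A peak that the pooled depth could not resolve is missing from these lists, and a Rad21 peak below the limit of detection counts here as absent.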
